A study of Mus musculus with 24 samples.

Results

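Collagens are matrix proteins, most of them secreted and a few anchored in the cell membrane, whose chains wind around each other into a helix. Genes were chosen by symbol: Col, a number, the letter a and a number. There were 44 such genes in each of 2 tables of normalized counts from mouse stem cells, out of 23095 genes listed in the table of the J1 line and 25476 in the table of the tet-off lines. Tests needed at least 2 reads in a table, which left 43 collagen genes of 21533 tested genes in the J1 table and 44 of 24007 in the tet-off table. Col4a4 was the member not tested in J1. Where a gene is named beside a count of 5 or fewer, as a member of a class or as an extreme of a range, it was chosen after its values were seen.

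The study compared embryonic stem cells with extended pluripotent stem cells (EPSCs) at several molecular levels, and part of it examined how EPSCs depend on Oct4, Sox2 and Nanog. J1 is a wild type embryonic stem cell (ESC) line, sequenced as ESCs and as EPSCs of 2 media, D-EPSC and L-EPSC. According to the methods, the ESC medium held serum, LIF, CHIR99021 and PD0325901. The D-EPSC medium was N2B27 based, with KSR, LIF, CHIR99021, dimethindene maleate and minocycline. The L-EPSC medium held KSR, LIF, CHIR99021, PD0325901, A-419259, XAV939, JNK inhibitor VIII and SB203580. J1 ESCs were grown on mouse embryonic fibroblast (MEF) feeders or on gelatin, and the labels do not say which for the sequenced libraries. Both EPSC types are described as moved to feeder-free culture before sequencing.

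The tet-off table holds 3 engineered lines: ZHBTc4 (Oct4-cKO), 2TS22C (Sox2-cKO) and NgcKO (Nanog-cKO). In each, the endogenous gene (Pou5f1, Sox2 or Nanog) is deleted and a transgene that doxycycline (Dox) switches off takes its place. Each line was sequenced as ESCs, as untreated L-EPSCs and as L-EPSCs given Dox, and the labels do not state for how long. Each genotype is 1 line, so genotype and line cannot be told apart.

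Every group has 2 replicate libraries, and the labels do not say whether they are separate cultures, so a p-value here measures only the spread between these samples. Groups of 2 against 2 cannot give an exact permutation p under 0.333. Libraries held 11612919 to 15069899 reads on genes in the J1 table (median 13076077) and 10807631 to 14798984 in the tet-off table (median 12109406). The tables were normalized separately, so a level in J1 and a level in a tet-off line are only set side by side. A gene was called where limma gave an adjusted p below 0.05 and its log2 fold change exceeded 0.6 in size, or 1 for Dox effects. Fold changes were taken on log2(normalized count + 1), which understates them in genes with few counts.

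Fibrillar collagens, types I, II, III, V, XI, XXIV and XXVII, form the fibrils of connective tissue. Type IV collagen forms the sheet of basement membranes, and type XVIII, a multiplexin, is a second basement membrane collagen. Type VI collagens form beaded filaments, FACIT collagens sit on the surface of fibrils, and other types build short-chain networks, anchoring fibrils or membrane-bound forms. Col26a1 and Col28a1 were kept apart as other collagens.

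Collagen messages were a larger part of the J1 libraries than of the tet-off libraries. The 44 genes summed to 120490.6 and 123117 normalized counts in J1 ESCs, 84617 and 84816 in D-EPSCs and 35050.1 and 36112 in L-EPSCs. That is 0.890% and 0.910% of reads in ESCs, 0.655% and 0.657% in D-EPSCs and 0.263% and 0.271% in L-EPSCs. Fibrillar genes made up 85.1% and 85.5% of the collagen sum in ESCs, 71.4% and 71.6% in D-EPSCs and 57.4% and 58.0% in L-EPSCs. Both the sum and its fibrillar share were highest in ESCs and lowest in L-EPSCs. In a bulk sample, fewer cells of a type and less RNA per cell cannot be told apart. Over the 18 tet-off libraries, collagens made up 0.0303% to 0.202% of reads, and fibrillar genes 4.18% to 23.9% of the collagen sum.

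**Figure D1:**
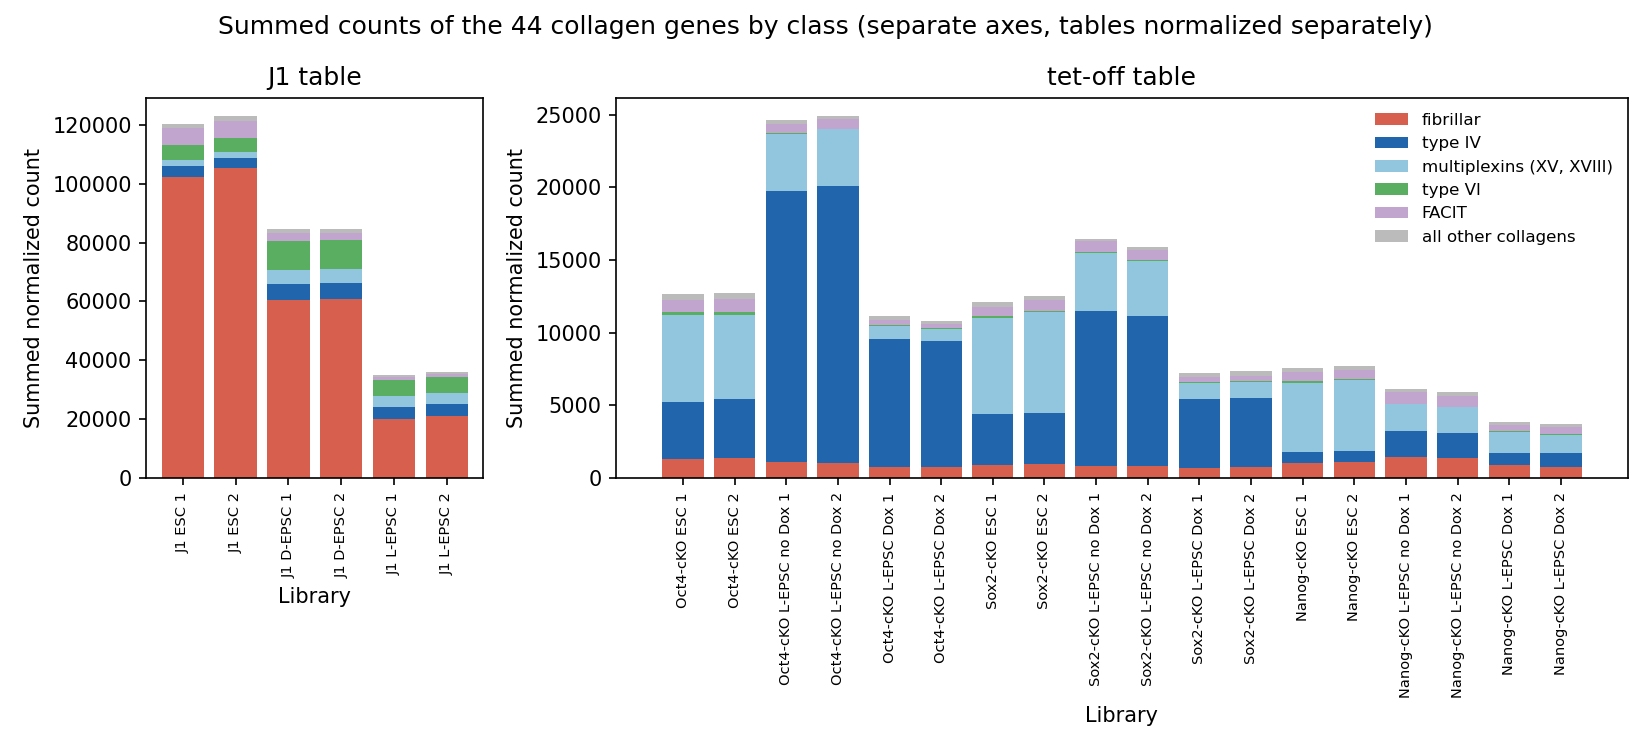
Summed normalized counts of the 44 collagen genes in each library, stacked by class. The tables were normalized separately and have separate axes.

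In D-EPSCs against ESCs, limma called 19 collagen genes higher and 7 lower of 43, where 10.8% and 9.98% of all tested genes were called. The median log2 fold change of the collagens was 0.28 and that of all genes 0.01. In L-EPSCs against ESCs, 7 were called higher and 15 lower (8.80% and 11.5% of all genes), with medians of -0.30 and 0.00. L-EPSCs against D-EPSCs gave 2 higher and 20 lower (4.80% and 8.58% of all genes), with medians of -0.96 and 0.00. The rest were not called. These 3 comparisons share libraries pairwise, so their values stand side by side only. Without J1 D-EPSC replicate 1, and likewise without J1 D-EPSC replicate 2, the D-EPSC against ESC comparison kept 17 calls of its 26.

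Col1a1 was the most abundant collagen message in the J1 libraries. Per kilobase of annotated exon, Col1a1 led in ESCs with a group mean of 6901 normalized counts, ahead of Col3a1 at 2053 and Col1a2 at 1963. Col1a1 also led in D-EPSCs at 3022 and in L-EPSCs at 1143, where Col18a1 came next at 511, ahead of Col1a2 at 471 and Col3a1 at 403. These lengths pool all annotated exons of a gene, 12145 bases for Col1a2, 8393 for Col3a1 and 7021 for Col18a1. In counts, Col1a2 lay above Col18a1 in L-EPSCs (5606 and 5835 against 3592 and 3580) and above Col3a1 in ESCs. The order behind Col1a1 thus depends on the length used. By class, 3 of 11 fibrillar genes were called higher and 5 lower in D-EPSCs against ESCs, 1 higher and 7 lower in L-EPSCs against ESCs, and 10 lower in L-EPSCs against D-EPSCs. Over all genes, 10.8%, 8.80% and 4.80% were called higher and 9.98%, 11.5% and 8.58% lower in these comparisons. The median fibrillar log2 fold changes were -0.07, -1.97 and -1.37.

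Col1a1 and Col1a2 encode the chains of type I collagen, the main fibril collagen of connective tissue. Col1a1 had 44565 and 46016 normalized counts in ESCs, 19651 and 20021 in D-EPSCs and 7277 and 7721 in L-EPSCs. Col1a2 had 23525 and 24167 in ESCs, 14861 and 14798 in D-EPSCs and 5606 and 5835 in L-EPSCs. Both genes were highest in ESCs and lowest in L-EPSCs, with no overlap between groups. By limma, Col1a1 fell in D-EPSCs against ESCs (log2 fold change -1.19, SE 0.0299, adjusted p 9.37e-08), in L-EPSCs against ESCs (-2.59, SE 0.0299, adjusted p 3.41e-09) and in L-EPSCs against D-EPSCs (-1.40, SE 0.0299, adjusted p 2.1e-07). Col1a2 fell in the same limma comparisons by -0.69 (SE 0.0246, adjusted p 5.44e-07), -2.06 (SE 0.0246, adjusted p 3.87e-09) and -1.37 (SE 0.0246, adjusted p 1.2e-07). The ratio of Col1a1 to Col1a2 was 1.89 and 1.90 in ESCs, 1.32 and 1.35 in D-EPSCs and 1.30 and 1.32 in L-EPSCs.

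Col3a1 encodes type III collagen, which shares fibrils with type I. It had 17158 and 17301 normalized counts in ESCs, 16452 and 16452 in D-EPSCs and 3352 and 3406 in L-EPSCs, so L-EPSCs stood apart and the D-EPSC level lay near that of ESCs. Limma did not call it in D-EPSCs against ESCs (-0.07), and it fell in L-EPSCs against ESCs (-2.35, SE 0.0194, adjusted p 8.15e-10) and against D-EPSCs (-2.28, SE 0.0194, adjusted p 2.03e-09). The ratio of Col1a1 to Col3a1 was 2.60 and 2.66 in ESCs, 1.19 and 1.22 in D-EPSCs and 2.17 and 2.27 in L-EPSCs. In D-EPSCs, Col1a1 was thus lower relative to Col3a1 than in either other group.

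Col5a1 and Col5a2 encode type V chains, which start fibrils and set their width, and Col12a1 encodes a FACIT collagen bound to type I fibrils. Col5a1 had 8886 and 8979.7 normalized counts in ESCs, 4701 and 4544.5 in D-EPSCs and 1935 and 1933 in L-EPSCs. Col5a2 had 7291.5 and 7721, 3599.5 and 3775, and 1328 and 1412, and Col12a1 had 5341 and 5267, 1662 and 1521, and 702 and 646, in the same order. All 3 genes were highest in ESCs and lowest in L-EPSCs without overlap. Limma gave -0.95 for Col5a1 (SE 0.0271, adjusted p 1.63e-07), -1.03 for Col5a2 (SE 0.044, adjusted p 1.32e-06) and -1.74 for Col12a1 (SE 0.0558, adjusted p 3.12e-07) in D-EPSCs against ESCs. In L-EPSCs against ESCs, limma gave -2.21 for Col5a1 (SE 0.0271, adjusted p 4.11e-09), -2.45 for Col5a2 (SE 0.044, adjusted p 2.7e-08) and -2.98 for Col12a1 (SE 0.0558, adjusted p 3.18e-08). In L-EPSCs against D-EPSCs, the limma values were -1.26 for Col5a1 (SE 0.0271, adjusted p 2.1e-07) and -1.43 for Col5a2 (SE 0.044, adjusted p 6.42e-07).

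The fibrillar genes called higher in D-EPSCs than in ESCs were Col2a1 (2.72), Col24a1 (1.73) and Col11a2 (1.52), all at low counts. Col2a1, the main collagen of cartilage, had at most 13.8 normalized counts in ESCs, 104 and 88.1 in D-EPSCs and 30.8 and 29.9 in L-EPSCs. It was also the fibrillar gene called higher in L-EPSCs than in ESCs, at 1.10.

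The called genes not given with full statistics covered a wide range. In D-EPSCs against ESCs, the 16 other higher genes ranged from 0.74 to 3.40, and the other lower ones were Col8a1 (-0.61) and Col11a1 (-1.02). In L-EPSCs against ESCs, the 9 other lower genes ranged from -2.97 to -0.60 and the 6 other higher ones from 1.10 to 4.23. In L-EPSCs against D-EPSCs, the 14 other lower genes ranged from -2.84 to -0.68, and the higher ones were Col6a5 (2.56) and Col13a1 (1.17).

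**Figure D2:**
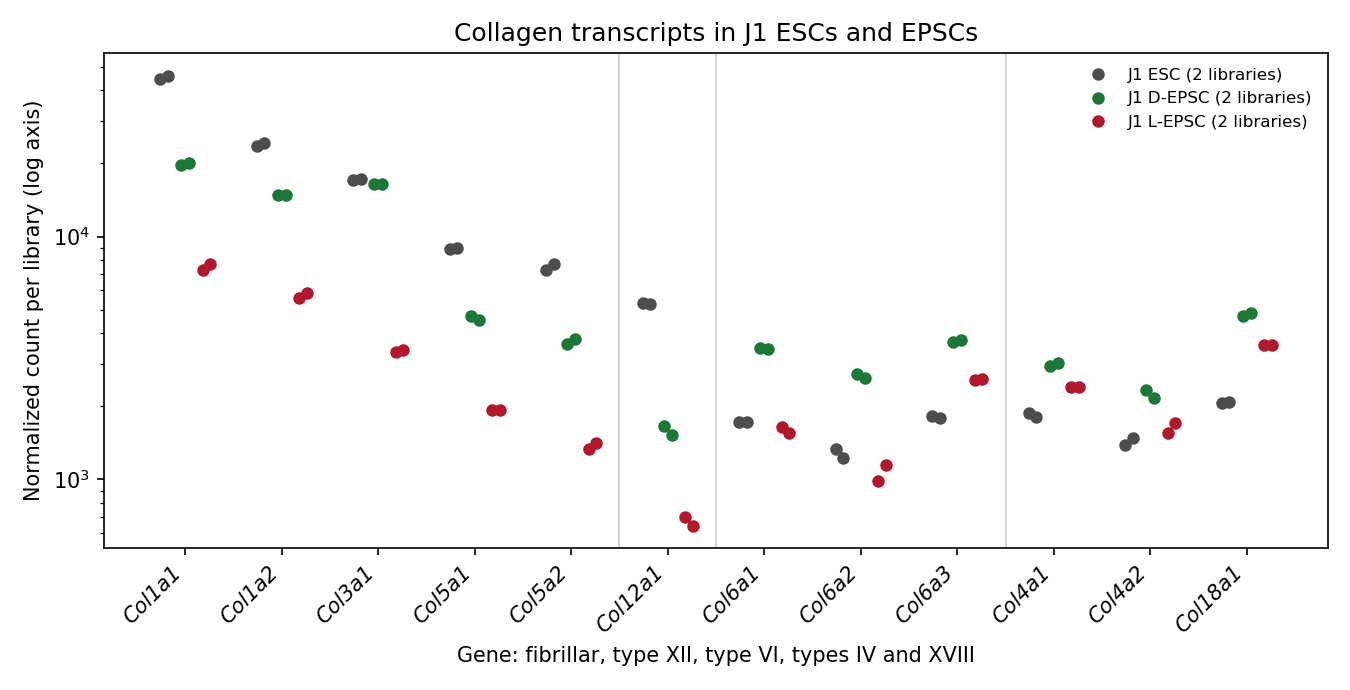
Normalized counts of fibrillar, FACIT, type VI and basement membrane collagen genes in each J1 library, on a log axis.

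Type VI genes moved differently from the fibrillar genes in D-EPSCs. Against ESCs, all 6 were called higher in D-EPSCs (median 1.36), where 10.8% of all genes were called higher. In L-EPSCs 3 of 6 were called higher (median 1.17), against 8.80% of all genes. Those 3 were the scarcer Col6a4, Col6a5 and Col6a6, while Col6a1, Col6a2 and Col6a3 were not called. Col6a2 was lower in L-EPSCs, with 989 and 1149 normalized counts against 1339.9 and 1226 in ESCs. Col6a1 had 1726 and 1716 normalized counts in ESCs, 3474 and 3441 in D-EPSCs and 1646 and 1557 in L-EPSCs. Col6a3 had 1817 and 1791 in ESCs, 3688 and 3734 in D-EPSCs and 2565 and 2589 in L-EPSCs. Both were highest in D-EPSCs, and Col6a1 in L-EPSCs lay just under its ESC values. In L-EPSCs against D-EPSCs, limma called Col6a1 lower (-1.11, SE 0.0371, adjusted p 9.1e-07), as well as Col6a2 (-1.32), while Col6a5 was higher (2.56). Col6a5 had 10.8 and 11.1 in ESCs, 41.9 and 32.3 in D-EPSCs and 200.5 and 246 in L-EPSCs. Col6a4, Col6a5 and Col6a6 lie side by side on chromosome 9 and are similar, so reads may be shared between them. The ratio of Col1a1 to Col6a1 was 25.8 and 26.8 in ESCs, 5.66 and 5.82 in D-EPSCs and 4.42 and 4.96 in L-EPSCs.

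Of the basement membrane collagens, Col4a1, Col4a2 and Col18a1 did not fall with the fibrillar ones. Col4a1 and Col4a2 encode the chains of the common type IV network, and Col18a1 encodes type XVIII, whose cleaved end is endostatin. Col18a1 had 2058 and 2076 normalized counts in ESCs, 4717 and 4846 in D-EPSCs and 3592 and 3579.9 in L-EPSCs. Col4a1 had 1873 and 1805, 2943 and 3004.5, and 2403 and 2397, and Col4a2 had 1381 and 1474, 2329 and 2164.5, and 1554 and 1713.5, in the same order. All 3 were lowest in ESCs and highest in D-EPSCs without overlap. In D-EPSCs against ESCs, limma gave 1.21 for Col18a1 (SE 0.0282, adjusted p 6.86e-08), 0.69 for Col4a1 (SE 0.0334, adjusted p 2.42e-06) and 0.65 for Col4a2 (SE 0.0607, adjusted p 8.79e-05). In L-EPSCs against ESCs, limma called Col18a1 (0.79, SE 0.0282, adjusted p 5.48e-07) and did not call Col4a1 (0.38) or Col4a2 (0.19). None of these genes was called between L-EPSCs and D-EPSCs. Type IV genes made up 3.03% and 2.98% of the collagen sum in ESCs, 6.66% and 6.54% in D-EPSCs and 11.7% and 11.8% in L-EPSCs.

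The other type IV chains were scarce. Col4a5 had 358 and 347 normalized counts in ESCs, 326 and 342 in D-EPSCs and 126.5 and 123 in L-EPSCs. Col4a5 and Col4a6 were the type IV genes called lower in L-EPSCs, at -1.49 and -1.43 against ESCs and at -1.41 and -1.20 against D-EPSCs. The median of the 5 tested type IV genes in L-EPSCs against ESCs was -0.75. The second multiplexin, Col15a1, was called higher in D-EPSCs (2.95) and in L-EPSCs (2.32) than in ESCs, at no more than 15.7 normalized counts.

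Fibroblast markers were present in every J1 library, with all 16 listed genes at 10 or more reads. They summed to 28596 and 28959.7 normalized counts in ESCs, 23051 and 22646 in D-EPSCs and 12232 and 11979 in L-EPSCs. Fbln2 was the most abundant in ESCs (10290.2 and 10278) and L-EPSCs (3828.5 and 3694), and Bgn in D-EPSCs (5599.9 and 5608). Among the defining markers, Postn had 2935 and 2852 in ESCs, 1875 and 1737 in D-EPSCs and 1204 and 1162 in L-EPSCs. Dcn had 639 and 616, 1616.5 and 1575, and 619.9 and 615, in the same order. Postn thus followed the order of Col1a1, as did Prrx1, while Dcn, Thy1, Twist2 and Lum were highest in D-EPSCs. The 6 defining markers summed to 4885 and 4825 in ESCs, 5001.5 and 4866 in D-EPSCs and 2631 and 2582 in L-EPSCs. These defining sums overlapped between ESCs and D-EPSCs and were lowest in L-EPSCs. Of the 16 genes, limma called 5 higher and 5 lower in D-EPSCs against ESCs (median -0.12), 11 lower in L-EPSCs against ESCs (median -1.34) and 12 lower in L-EPSCs against D-EPSCs (median -1.14), where 9.98%, 11.5% and 8.58% of all genes were called lower and 10.8% higher in D-EPSCs. Whether fibroblasts or feeders account for the J1 collagen counts was not tested.

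The other cell type lists did not all move alike. Macrophage markers, 10 genes led by Lyz2, summed to 2672.5 and 2694 normalized counts in ESCs, 22741 and 22915 in D-EPSCs and 17391 and 17513 in L-EPSCs. Against ESCs, all 10 were called higher in D-EPSCs (median 2.60) and 8 in L-EPSCs (median 2.42), where 10.8% and 8.80% of all genes were called higher and 9.98% and 11.5% lower. Primitive and parietal endoderm markers, 16 genes led by Sparc, summed to 14638 and 14557 in ESCs, 12545 and 12702 in D-EPSCs and 6538.5 and 6585 in L-EPSCs. Sparc alone, at 13039 and 12956, made most of the ESC sums. Against ESCs, 6 of these genes were called higher and 1 lower in D-EPSCs (median 0.31), and for L-EPSCs the calls were 7 higher and 1 lower (median 1.39). Trophoblast markers, 12 genes, summed to 1583 and 1564 in ESCs, 201 and 215 in D-EPSCs and 801 and 831 in L-EPSCs, and against ESCs 6 were called lower in D-EPSCs, while L-EPSCs had 3 higher and 4 lower. Endothelial markers, 5 genes led by Pecam1, summed to 853 to 2347 over the libraries, with 2 called higher and 2 lower in D-EPSCs, and 1 higher and 2 lower in L-EPSCs. Pluripotency markers, 9 genes, summed to 64196 and 64649 in ESCs, 43806 and 43225 in D-EPSCs and 53157 and 52856 in L-EPSCs, with 4 called lower in D-EPSCs and 3 in L-EPSCs.

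The genes that fold, process and bind collagen were also counted in J1, where 10.8%, 8.80% and 4.80% of all genes were called higher and 9.98%, 11.5% and 8.58% lower in D-EPSCs against ESCs, L-EPSCs against ESCs and L-EPSCs against D-EPSCs. Of 20 tested folding and modification genes, 2 were called higher and 7 lower in D-EPSCs against ESCs (median -0.20), and 11 lower in L-EPSCs against ESCs (median -0.64). Serpinh1, the chaperone HSP47, had 4410.5 and 4217 normalized counts in ESCs against 2598 and 2399.6 in L-EPSCs, did not overlap between them and fell by limma (-0.79, SE 0.0429, adjusted p 4.7e-06). Of 14 processing and crosslinking genes, 3 were called higher and 3 lower in D-EPSCs against ESCs (median -0.01), 8 lower in L-EPSCs against ESCs (median -0.74) and 10 lower in L-EPSCs against D-EPSCs (median -0.88). Lox, a crosslinking enzyme, had 7371 and 7371 in ESCs, 2011 and 1972 in D-EPSCs and 747 and 750.5 in L-EPSCs, stepping down between groups. Limma gave Lox -1.89 in D-EPSCs (SE 0.031, adjusted p 1.91e-08) and -3.30 in L-EPSCs (SE 0.031, adjusted p 1.46e-09) against ESCs. Of 8 receptors, 1 was called lower in D-EPSCs against ESCs, namely Ddr2 (-0.91), and 2 were higher and 4 lower in L-EPSCs against ESCs (median -0.46).

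Most basement membrane genes other than collagens did not follow Col4a1 and Col18a1 in J1, and Lamb1 did. Of 16, 2 were called higher and 9 lower in D-EPSCs against ESCs (median -0.65), and 9 lower in L-EPSCs against ESCs (median -1.09), where 10.8% and 8.80% of all genes were called higher and 9.98% and 11.5% lower. Sparc, a matrix protein that binds type IV collagen and is also on the endoderm list, had 13039 and 12956 normalized counts in ESCs, 8328 and 8639 in D-EPSCs and 3905 and 3912 in L-EPSCs. It stepped down from ESCs to L-EPSCs without overlap and fell in L-EPSCs against ESCs by limma (-1.73, SE 0.0241, adjusted p 7.17e-09). Lamc1, a laminin chain, fell in D-EPSCs against ESCs (-0.91, SE 0.0237, limma adjusted p 1.08e-07), whereas Lamb1 rose (1.08, SE 0.0433, limma adjusted p 9.29e-07).

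In the tet-off lines, the targeted genes are given as normalized counts for the ESCs, then L-EPSCs without Dox and L-EPSCs with Dox. In Oct4-cKO, Pou5f1 had 8943 and 9063, 6420.1 and 6316, and 162 and 184. In Oct4-cKO, Sox2 had 8719.5 and 8709, 5483 and 5479.5, and 260.3 and 229.8, and Nanog had 9691 and 9566, 7424 and 7636, and 691 and 726. In the Oct4-cKO line all 3 genes were thus far lower with Dox. In Sox2-cKO, Pou5f1 had 10509.6 and 10293, 8221 and 8489.9, and 3290.6 and 3073, and Nanog had 7007 and 6882, 7883 and 7557, and 654 and 733. Sox2 in that line had 5688 and 5497, 4966 and 4701, and 47.0 and 53.1, the lowest values of the targeted genes in any group. In Nanog-cKO, Pou5f1 had 14947 and 15077, 10948.5 and 10877, and 8379.7 and 7726, and Sox2 had 6729 and 6619, 4849.6 and 4848, and 3939.5 and 3895. Nanog in the Nanog-cKO line had 14993 and 15127, 9119 and 8847, and 3166 and 3112, so its message did not drop as far as the other 2 targets in their lines.

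Tet-off cells had few messages of types I and III. Col3a1 had 0.0 to 2.0 normalized counts in all 18 libraries and Col1a1 18 to 122, against 3352 or more and 7277 or more in J1, in the table normalized separately. Some other fibrillar genes were not lower than in J1: Col5a3 had 883 and 794 in untreated Nanog-cKO L-EPSCs against at most 596 in J1, and Col2a1 had 43.9 to 123 in tet-off ESCs against at most 13.8 in J1 ESCs.

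The defining fibroblast markers Lum, Twist2 and Prrx1 were at or near 0: Lum was at 0 in 17 of 18 libraries, Twist2 did not exceed 3.1 normalized counts and Prrx1 did not exceed 3.4. Postn reached at most 50.0, in Oct4-cKO with Dox. Thy1 was not near 0 in ESCs, with 342 and 365.5 in Oct4-cKO, above every J1 library of the separately normalized table. Nanog-cKO ESCs had 171.5 and 197. With Dox, Thy1 was at 9.2 and 4.4 in Oct4-cKO, 1.6 and 3.3 in Sox2-cKO and 21.1 and 23.6 in Nanog-cKO. Dcn was sought for these lines, but no gene of that symbol was listed, so it has no values here. All 15 listed fibroblast genes summed to 632 to 1285 normalized counts per library. Limma called 6, 3 and 2 of 14 tested fibroblast genes higher and 3, 4 and 2 lower on conversion in Oct4-cKO, Sox2-cKO and Nanog-cKO, where 13.0%, 7.99% and 12.2% of all genes were called higher and 15.4%, 11.6% and 14.7% lower. With Dox the calls were 4, 3 and 1 higher and 6, 3 and 1 lower, against 8.53%, 7.79% and 2.80% of all genes higher and 10.8%, 7.32% and 2.59% lower. The Nanog-cKO counts lay near the shares of all genes.

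Per kilobase of annotated exon, Col18a1 led in the ESCs of all 3 lines, with group means of 834 normalized counts in Oct4-cKO, 961 in Sox2-cKO and 679 in Nanog-cKO. In untreated L-EPSCs, Col4a1 led in Oct4-cKO at 1848 and in Sox2-cKO at 1041, and Col18a1 led in Nanog-cKO at 259. With Dox, Col4a1 led in Oct4-cKO at 803 and in Sox2-cKO at 386, and Col18a1 in Nanog-cKO at 189. The leading gene thus changed on conversion in 2 of 3 lines and stayed the same with Dox in all 3. Type IV genes made up 31.5% and 32.1% of the collagen sum in Oct4-cKO ESCs, 75.7% and 76.4% in untreated L-EPSCs and 79.2% and 80.0% with Dox. In Sox2-cKO the same shares were 29.4% and 27.9%, 64.9% and 65.1%, and 65.8% and 64.8%. In Nanog-cKO they were 10.3% and 9.77%, 28.4% and 29.2%, and 22.1% and 25.4%.

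On conversion from ESCs to untreated L-EPSCs, limma called 3 collagen genes higher and 10 lower of 44 in Oct4-cKO, where 13.0% and 15.4% of all genes were called. In Sox2-cKO, 4 were higher and 13 lower (7.99% and 11.6% of all genes), and in Nanog-cKO 5 were higher and 8 lower (12.2% and 14.7% of all genes). The share called higher lay under that of all genes in Oct4-cKO and near it in the other lines. The collagen medians were -0.38, -0.70 and -0.42, and the medians of all genes were 0.00. Fitting only the groups compared gave 10 calls in place of 17 in Sox2-cKO. The untreated L-EPSC libraries serve both here and as the controls of the Dox comparisons, so the effects stand side by side only.

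Col4a1 and Col4a2 were called higher on conversion in 3 of 3 lines. Col4a1 went from 2868 and 3024 normalized counts in ESCs to 12470.2 and 12736 in L-EPSCs in Oct4-cKO, from 2199 and 2220.4 to 7196 and 6995 in Sox2-cKO, and from 561.5 and 479 to 1097 and 1084 in Nanog-cKO. Col4a2 went from 1097 and 1048 to 6153 and 6279 in Oct4-cKO, from 1268 and 1221 to 3471 and 3321 in Sox2-cKO, and from 205 and 262 to 622 and 639 in Nanog-cKO. ESC and L-EPSC values did not overlap in any line, and both genes were lowest in Nanog-cKO. Limma gave Col4a1 2.10 in Oct4-cKO (SE 0.062, adjusted p 1.19e-13), 1.68 in Sox2-cKO (SE 0.062, adjusted p 4.47e-12) and 1.07 in Nanog-cKO (SE 0.062, adjusted p 4.22e-10). Limma gave Col4a2 2.53 (SE 0.0795, adjusted p 2.37e-13), 1.45 (SE 0.0795, adjusted p 4.55e-10) and 1.44 (SE 0.0795, adjusted p 2.37e-10) in the same lines. No other type IV gene was called higher, and Col4a5 (-2.20) and Col4a6 (-3.87) were called lower in Sox2-cKO.

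Col18a1 moved the other way. It went from 5939 and 5772 normalized counts in ESCs to 3905 and 3929 in L-EPSCs in Oct4-cKO, from 6581 and 6908 to 3984 and 3822 in Sox2-cKO, and from 4711 and 4826 to 1861 and 1781 in Nanog-cKO. It was lower after conversion in each line without overlap. Limma called it in Sox2-cKO (-0.79, SE 0.0575, adjusted p 1.43e-08) and Nanog-cKO (-1.39, SE 0.0575, adjusted p 7.26e-12), and in Oct4-cKO its -0.58 was short of the 0.6 threshold. Without Oct4-cKO ESC replicate 2 that value was -0.60 and the gene was called. The ratio of Col4a1 to Col18a1 rose from 0.483 and 0.524 to 3.19 and 3.24 in Oct4-cKO, from 0.334 and 0.321 to 1.81 and 1.83 in Sox2-cKO, and from 0.119 and 0.0992 to 0.590 and 0.608 in Nanog-cKO.

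**Figure D3:**
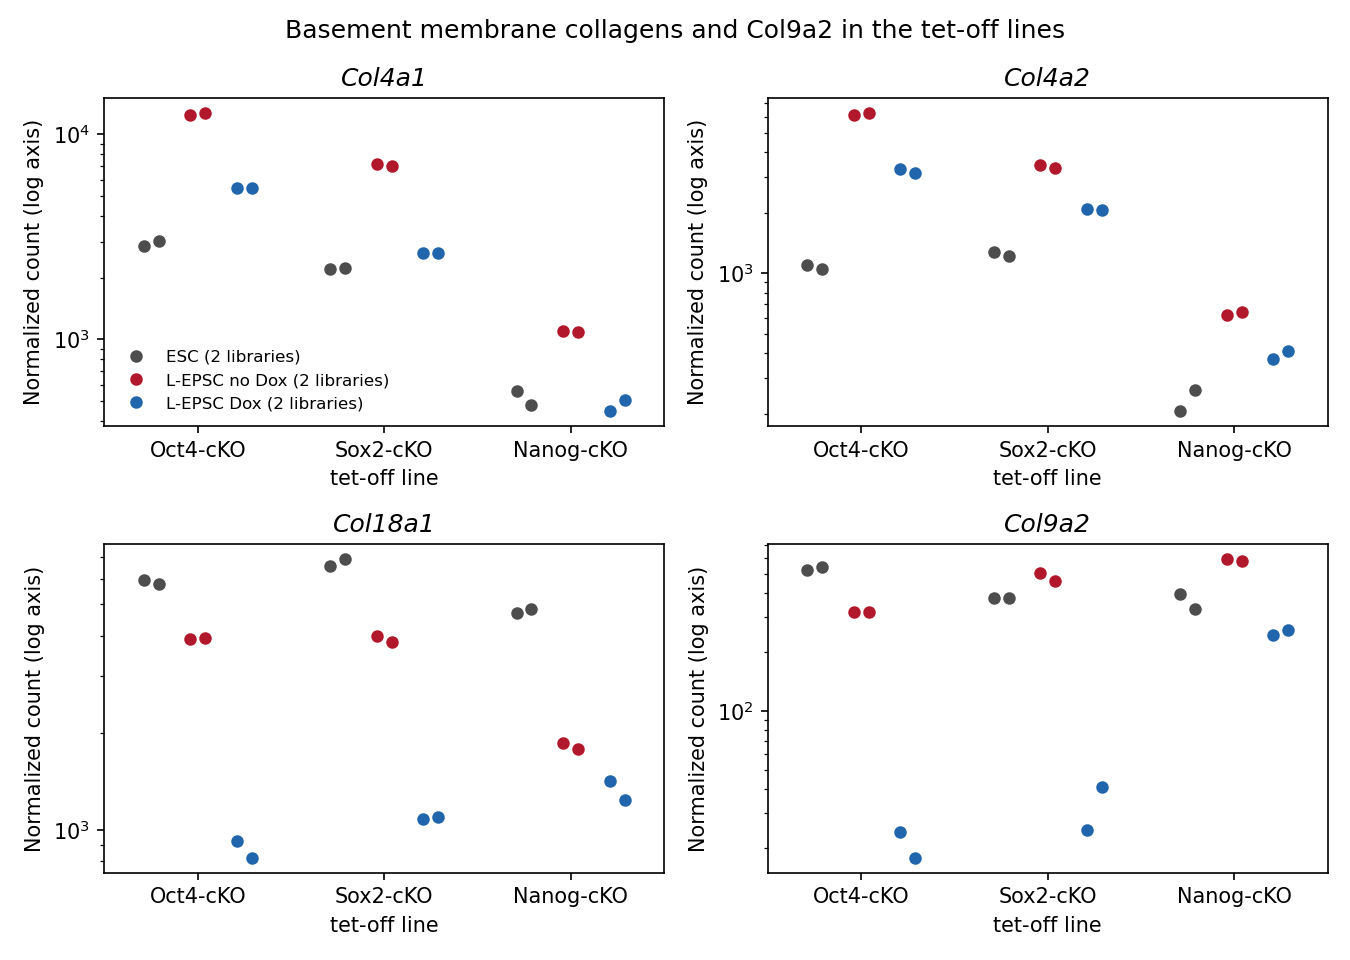
Normalized counts of Col4a1, Col4a2, Col18a1 and Col9a2 in ESCs and in L-EPSCs without and with Dox, for each tet-off line on a log axis.

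Among fibrillar genes, Col5a3, a chain of type V collagen, had 107 and 108 normalized counts in Sox2-cKO ESCs and 226 and 240.4 in L-EPSCs, and 254 and 277 against 883 and 794 in Nanog-cKO. It was higher in L-EPSCs of both lines, with limma values of 1.11 in Sox2-cKO (SE 0.0971, adjusted p 1.28e-07) and 1.66 in Nanog-cKO (SE 0.0971, adjusted p 5.06e-10). Col11a1, a fibrillar collagen of cartilage, had 166 and 169 in Oct4-cKO ESCs against 39.9 and 45.8 in L-EPSCs, and 183 and 193 against 85.3 and 77.8 in Sox2-cKO. The ESC values were the higher ones in both lines, and limma gave -1.95 in Oct4-cKO (SE 0.247, adjusted p 5.42e-06) and -1.20 in Sox2-cKO (SE 0.247, adjusted p 0.00101). Col5a1 had 446.5 and 451 in Nanog-cKO ESCs and 265 and 233.5 in L-EPSCs, lower after conversion, with -0.85 by limma (SE 0.125, adjusted p 3.04e-05).

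Col1a1 was called lower in 2 lines at low counts. It had 45.4 and 49.4 normalized counts in Sox2-cKO ESCs against 20.5 and 25.9 in L-EPSCs, and 82.6 and 122 against 54.3 and 43.8 in Nanog-cKO. ESC values were higher in both lines, and limma gave -1.01 (SE 0.316, adjusted p 0.0193) and -1.03 (SE 0.316, adjusted p 0.0144). The Sox2-cKO call was lost without Sox2-cKO ESC replicate 1 (-1.07), without Sox2-cKO ESC replicate 2 (-0.95) and without Sox2-cKO L-EPSC no Dox replicate 1 (-0.84). The Nanog-cKO call was lost without Nanog-cKO ESC replicate 2 (-0.75) and without Nanog-cKO L-EPSC no Dox replicate 2 (-0.88). Both calls were also lost when only the groups compared were fitted.

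Col9a2 and Col9a3 encode chains of type IX, a FACIT collagen of cartilage. Col9a2 had 519.7 and 541.5 normalized counts in Oct4-cKO ESCs against 319 and 319.8 in L-EPSCs, and 395 and 329.6 against 593 and 581 in Nanog-cKO. It was lower after conversion in Oct4-cKO and higher in Nanog-cKO, with limma values of -0.73 (SE 0.175, adjusted p 0.00252) and 0.70 (SE 0.175, adjusted p 0.0036). The Nanog-cKO call was lost without Nanog-cKO ESC replicate 2 (0.57). Col9a3 had 120.1 and 143 in Sox2-cKO ESCs against 58.3 and 58.9 in L-EPSCs, the lower values, and limma gave -1.15 (SE 0.253, adjusted p 0.00166).

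Col7a1, of anchoring fibrils, had 109 and 99.6 normalized counts in Oct4-cKO ESCs against 40.8 and 32.3 in L-EPSCs, and Col13a1, a membrane collagen, had 123 and 91.9 against 15.1 and 14.4. Both were lower in L-EPSCs, with limma values of -1.49 (SE 0.384, adjusted p 0.0043) and -2.77 (SE 0.355, adjusted p 5.87e-06). The Col7a1 call was lost without Oct4-cKO L-EPSC no Dox replicate 2 (-1.33). The other 6 genes lower in Oct4-cKO ranged from -3.57 to -1.16, and Col10a1 was called higher with no more than 3 reads in any library compared. In Sox2-cKO the other 9 lower genes ranged from -3.87 to -1.42, among them Col8a1 with no more than 3 reads in any library compared. Col26a1 was the remaining higher one there (1.27). In Nanog-cKO the other 5 lower genes, Col9a3, Col6a5, Col6a2, Col14a1 and Col6a4, ranged from -3.98 to -0.85, and Col2a1 was the remaining higher one (1.33).

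Col6a2, Col6a4 and Col9a3 were lower on conversion in 3 of 3 lines. By class, type VI genes called lower numbered 3 of 6 in Oct4-cKO (median -1.43), 2 in Sox2-cKO (median -0.95) and 3 in Nanog-cKO (median -1.42), where 15.4%, 11.6% and 14.7% of all genes were called lower. Col6a2 went from 45 and 38.7 normalized counts to 7.1 and 10.8 in Oct4-cKO, from 41.4 and 39.0 to 6.5 and 2.0 in Sox2-cKO, and from 40.8 and 41.5 to 11.7 and 12.2 in Nanog-cKO. These counts are low beside the Col6a2 counts of J1 ESCs, 1339.9 and 1226, in the table normalized separately.

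Conversion effects were then compared between lines. Limma called 4 collagen genes in either direction for Oct4-cKO minus Sox2-cKO (10.0% of all genes), 11 for Oct4-cKO minus Nanog-cKO (14.7%) and 6 for Sox2-cKO minus Nanog-cKO (14.8%). The counts of 4 and 6 lay at the shares of all genes and are not a result in themselves, and the 4 became 7 with edgeR. Without Sox2-cKO ESC replicate 1, and likewise without Sox2-cKO L-EPSC no Dox replicate 1, the contrast of Sox2-cKO with Nanog-cKO gave 2 calls. The Col4a2 effect was larger in Oct4-cKO than in Sox2-cKO (1.09, SE 0.112, limma adjusted p 2.98e-06) and than in Nanog-cKO (1.09, SE 0.112, limma adjusted p 1.7e-06). The Col4a1 effect was larger in Oct4-cKO than in Nanog-cKO (1.03, SE 0.088, limma adjusted p 2.22e-07). For Sox2-cKO against Nanog-cKO, Col4a1 was at the threshold (0.61, SE 0.088, limma adjusted p 6.02e-05), and the call was lost without Nanog-cKO ESC replicate 1 (0.50) and without Sox2-cKO L-EPSC no Dox replicate 1 (0.59), and under TMM scaling (0.60). The drop of Col18a1 was smaller in Oct4-cKO than in Nanog-cKO (0.81, SE 0.081, limma adjusted p 1.35e-06), and its other contrasts were not called.

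Of the remaining conversion contrasts, Col9a2 (-1.09, SE 0.248, limma adjusted p 0.00432) and Col5a3 (-0.62, SE 0.137, limma adjusted p 0.00354) differed between Oct4-cKO and Sox2-cKO. The Col5a3 call was lost without Oct4-cKO ESC replicate 1 (-0.58) and without Sox2-cKO L-EPSC no Dox replicate 2 (-0.58). Col4a5 (2.42) was the remaining call of that contrast. For Sox2-cKO minus Nanog-cKO, Col7a1 went from 169 and 134 normalized counts in ESCs to 25.9 and 43.9 in L-EPSCs of Sox2-cKO, and from 55.4 and 60.5 to 61.8 and 51.0 in Nanog-cKO. Its values dropped in Sox2-cKO and overlapped in Nanog-cKO, with a limma contrast of -2.08 (SE 0.543, adjusted p 0.00906). That call was lost without Sox2-cKO ESC replicate 1 (-1.92) and without Sox2-cKO L-EPSC no Dox replicate 1 (-1.71). Col2a1 had 89.9 and 116 normalized counts in ESCs and 91.8 and 72.8 in L-EPSCs of Sox2-cKO, which overlapped, and 43.9 and 44.8 against 113 and 113 in Nanog-cKO, which did not. Its limma contrast was -1.65 (SE 0.51, adjusted p 0.025), a call lost without any 1 of the 8 libraries of the contrast, at -1.83 to -1.46. The other calls there were Col6a5 (2.82), Col4a5 (-2.06) and Col8a2 (-2.40), and the other 8 of Oct4-cKO minus Nanog-cKO ranged from -3.54 to 3.66.

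With Dox in L-EPSCs, limma called 3 collagen genes higher and 11 lower of 44 in Oct4-cKO, where 8.53% and 10.8% of all genes were called. In Sox2-cKO, 6 were higher and 8 lower (7.79% and 7.32% of all genes), and in Nanog-cKO 3 were higher and 5 lower (2.80% and 2.59% of all genes). The collagen medians were -0.28, 0.51 and 0.00, with medians of 0.00 for all genes. Without Nanog-cKO L-EPSC Dox replicate 1, and likewise without Nanog-cKO L-EPSC no Dox replicate 2, the Nanog-cKO comparison kept 5 calls of 8. Fitting only the groups compared gave 8 calls in Oct4-cKO and 3 in Nanog-cKO.

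Col4a1 was called lower with Dox in 3 of 3 lines. It had 12470.2 and 12736 normalized counts without and 5484 and 5463.5 with Dox in Oct4-cKO, 7196 and 6995 against 2631.5 and 2634.5 in Sox2-cKO, and 1097 and 1084 against 445 and 507 in Nanog-cKO. Treated and untreated values did not overlap in any line, and in Oct4-cKO and Sox2-cKO the treated values stayed above those of the ESCs. Limma gave -1.20 in Oct4-cKO (SE 0.062, adjusted p 8.38e-11), -1.43 in Sox2-cKO (SE 0.062, adjusted p 1.56e-11) and -1.20 in Nanog-cKO (SE 0.062, adjusted p 6.76e-10). Col4a2 had 3295 and 3169 with Dox in Oct4-cKO, 2089.5 and 2060.5 in Sox2-cKO and 374 and 411 in Nanog-cKO. It was lower than in untreated cells each time but short of the threshold, at -0.94, -0.71 and -0.68.

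Col18a1 had 3905 and 3929 normalized counts without and 925 and 820.3 with Dox in Oct4-cKO, 3984 and 3822 against 1081 and 1096 in Sox2-cKO, and 1861 and 1781 against 1416 and 1241 in Nanog-cKO. The treated values were the lower ones in all lines, by little in Nanog-cKO. Limma gave -2.17 in Oct4-cKO (SE 0.0575, adjusted p 2.15e-14) and -1.84 in Sox2-cKO (SE 0.0575, adjusted p 3.1e-13), and -0.46 in Nanog-cKO was not called. As contrasts, the Col18a1 effect was stronger in Oct4-cKO than in Nanog-cKO (-1.71, SE 0.081, limma adjusted p 7.89e-11) and stronger in Sox2-cKO than in Nanog-cKO (-1.38, SE 0.081, limma adjusted p 1.69e-09). The ratio of Col4a1 to Col18a1 with Dox was 5.93 and 6.66 in Oct4-cKO, 2.44 and 2.40 in Sox2-cKO and 0.315 and 0.409 in Nanog-cKO.

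Col9a2 was the other gene called lower with Dox in 3 of 3 lines. It had 319 and 319.8 normalized counts without and 24.2 and 17.8 with Dox in Oct4-cKO, 507 and 459.9 against 24.7 and 40.9 in Sox2-cKO, and 593 and 581 against 242 and 259 in Nanog-cKO. Treated values were lower throughout, and least so in Nanog-cKO. Limma gave -3.88 in Oct4-cKO (SE 0.175, adjusted p 1.6e-11), -3.88 in Sox2-cKO (SE 0.175, adjusted p 2.64e-11) and -1.23 in Nanog-cKO (SE 0.175, adjusted p 6.03e-05). The contrast with Nanog-cKO was -2.65 for Oct4-cKO (SE 0.248, limma adjusted p 2.81e-07) and -2.65 for Sox2-cKO (SE 0.248, limma adjusted p 3.92e-07).

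Col2a1 and Col11a1, also cartilage collagens, were lower with Dox in 2 lines. Col2a1 had 79.9 and 53.9 normalized counts without and 3.5 and 3.3 with Dox in Oct4-cKO, 91.8 and 72.8 against 14.8 and 4.9 in Sox2-cKO, and 113 and 113 against 82.6 and 70.8 in Nanog-cKO. Its treated values were the lower ones in each line, and limma gave -3.92 in Oct4-cKO (SE 0.36, adjusted p 1.2e-07) and -3.10 in Sox2-cKO (SE 0.36, adjusted p 2.47e-06). The Sox2-cKO call was lost when only the groups compared were fitted. Col11a1 had 85.3 and 77.8 without and 18.1 and 28.6 with Dox in Sox2-cKO, lower with Dox, and limma gave -1.79 (SE 0.247, adjusted p 1.65e-05). Col5a1 had 389 and 385 without and 167 and 206.5 with Dox in Oct4-cKO, again lower, and limma gave -1.06 (SE 0.125, adjusted p 2.52e-06). The Col5a1 call was lost without Oct4-cKO L-EPSC Dox replicate 1 (-0.90).

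Some genes were higher with Dox. Col1a2 had 6.2 and 9.9 normalized counts without and 62.2 and 47.7 with Dox in Oct4-cKO, and Col17a1, a membrane collagen of epithelia, had 56.2 and 48.9 against 134.5 and 132.5 in Sox2-cKO. Both were higher with Dox without overlap, and limma gave Col1a2 2.65 (SE 0.627, adjusted p 0.00228) and Col17a1 1.33 (SE 0.239, adjusted p 0.00024). The other genes called higher were Col6a1 (1.92) and Col4a5 (1.45) in Oct4-cKO, and Col5a2 (1.90), Col4a5 (1.81), Col24a1 (2.31), Col14a1 (2.21) and Col8a1 (1.33) in Sox2-cKO. Col24a1 and Col14a1 did not exceed 9.1 normalized counts in the Sox2-cKO L-EPSC libraries. Col8a1 had no more than 3 reads in any library of the 2 groups compared. The other lower genes ranged from -3.76 to -1.21 in Oct4-cKO, where there were 6, and were Col9a3 (-1.83), Col27a1 (-1.44) and Col13a1 (-1.11) in Sox2-cKO.

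In Nanog-cKO, Col5a3 had 883 and 794 normalized counts without and 369 and 300.1 with Dox, lower with Dox, and limma gave -1.33 (SE 0.0971, adjusted p 3.78e-08). That call was lost when only the groups compared were fitted. In Sox2-cKO Col5a3 had 226 and 240.4 without and 272 and 294 with Dox, and the contrast of Sox2-cKO with Nanog-cKO was 1.61 (SE 0.137, limma adjusted p 1.35e-07). Col13a1 had 50.1 and 93.8 without and 22.8 and 25.9 with Dox in Nanog-cKO, lower with Dox, and limma gave -1.46 (SE 0.355, adjusted p 0.00577). The Col13a1 call was lost without Nanog-cKO L-EPSC no Dox replicate 2 (-1.01) and when only the groups compared were fitted.

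Col6a2 had 11.7 and 12.2 normalized counts without and 29.9 and 29.2 with Dox in Nanog-cKO, and Col6a3 had 11.7 and 0.0 against 12.3 and 30.4. Col6a2 was higher with Dox and Col6a3 was higher by a small margin in 1 treated library. Limma gave Col6a2 1.24 (SE 0.429, adjusted p 0.0459) and Col6a3 2.52 (SE 0.857, adjusted p 0.0418). Leaving out any 1 of the 4 libraries ended the Col6a2 call, at 1.21 to 1.26. The Col6a3 call was lost without Nanog-cKO L-EPSC Dox replicate 1 (3.14), without Nanog-cKO L-EPSC Dox replicate 2 (1.90) and without Nanog-cKO L-EPSC no Dox replicate 2 (0.68). Fitting only the groups compared, or a pseudocount of 0.1, ended both calls. The remaining calls in Nanog-cKO were Col16a1 (-2.15) and Col25a1 (2.94), both at low counts. Col16a1 had 17.0 and 11.2 without and 0.0 and 10.1 with Dox, so 1 treated library lay near the untreated values. Col25a1 had 0.0 and 1.0 without and 8.8 and 11.2 with Dox.

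Between lines, limma called 3 collagen genes for the Dox effect of Oct4-cKO minus Sox2-cKO (6.81% of all genes), 11 for Oct4-cKO minus Nanog-cKO (14.8%) and 11 for Sox2-cKO minus Nanog-cKO (11.3%). The 3 were Col7a1, Col27a1 and Col25a1, a share at that of all genes, so the count itself is not a result. It was 7 with edgeR, of which 2 were the same, and 2 to 5 without single libraries. Col7a1 had 40.8 and 32.3 normalized counts without and 6.9 and 17.8 with Dox in Oct4-cKO, and 25.9 and 43.9 against 56.9 and 60.5 in Sox2-cKO. It was lower with Dox in the former and higher in the latter, with a limma contrast of -2.40 (SE 0.543, adjusted p 0.00329). Col27a1, a fibrillar collagen of cartilage, had 43.5 and 38 without and 3.5 and 1.1 with Dox in Oct4-cKO, and 42.1 and 42.9 against 17.3 and 13.1 in Sox2-cKO. It was lower with Dox in both, more so in Oct4-cKO, with a limma contrast of -2.32 (SE 0.475, adjusted p 0.00145). Col25a1, a membrane collagen, had at most 5.4 normalized counts in these groups, with a limma contrast of -2.77 (SE 0.9, adjusted p 0.033) that edgeR did not call. That call was lost without Oct4-cKO L-EPSC Dox replicate 2 (-2.22), Oct4-cKO L-EPSC no Dox replicate 1 (-2.89) or 2 (-2.66), Sox2-cKO L-EPSC Dox replicate 1 (-2.57) or 2 (-2.97), or Sox2-cKO L-EPSC no Dox replicate 2 (-1.94).

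In the Dox contrast of Oct4-cKO with Nanog-cKO, Col22a1, a FACIT collagen of tissue junctions, had 112 and 112 normalized counts without and 93.3 and 95.5 with Dox in Oct4-cKO, and 63.9 and 63.2 against 126 and 96.7 in Nanog-cKO. It was lower with Dox in Oct4-cKO and higher in Nanog-cKO, with a limma contrast of -1.03 (SE 0.243, adjusted p 0.00314), which was not called without Nanog-cKO L-EPSC Dox replicate 1 (-0.84) or with a pseudocount of 5 (-0.99). The other 8 genes called in this contrast ranged from -4.95 to 3.27, and the other 8 called for Sox2-cKO minus Nanog-cKO from -2.54 to 4.21.

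In Oct4-cKO and Sox2-cKO, most trophoblast markers were called higher with Dox and all 9 pluripotency markers lower. In Nanog-cKO, 2 of either list were called. In Oct4-cKO the 12 trophoblast genes summed to 2024 and 1959 normalized counts in ESCs, 5108 and 4947 in untreated L-EPSCs and 38054 and 37679.7 with Dox. In Sox2-cKO the sums were 6395 and 6299.8, 2699.6 and 2701, and 15742 and 15743, and in Nanog-cKO 713 and 686, 782 and 709, and 1273 and 1208.5. They were highest with Dox in every line, with Krt8 the most abundant gene in most libraries. Limma called 9 of 12 higher with Dox in Oct4-cKO (median 2.84), 10 in Sox2-cKO (median 2.15) and 2 in Nanog-cKO (median 0.56), against 8.53%, 7.79% and 2.80% of all genes. On conversion 7 were called higher in Oct4-cKO (median 1.11), 5 lower in Sox2-cKO (median -1.09), and 5 higher and 2 lower in Nanog-cKO, where 13.0%, 7.99% and 12.2% of all genes were called higher and 15.4%, 11.6% and 14.7% lower. Pluripotency markers, 9 genes, were called lower with Dox in 9 of 9 in Oct4-cKO (median -4.48), 9 in Sox2-cKO (median -2.45) and 2 in Nanog-cKO (median -0.69), against 10.8%, 7.32% and 2.59% of all genes. That list holds Pou5f1, Sox2 and Nanog, the genes that Dox targets in these lines, so part of each count was set by the design.

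Endoderm markers, some of which make basement membrane, were counted beside the type IV genes. The defining genes Gata6, Gata4, Sox17 and Sox7 summed to 106 and 69.6 normalized counts in Oct4-cKO ESCs, 609 and 579 in untreated L-EPSCs and 442 and 409.6 with Dox. In Sox2-cKO the sums were 223 and 238, 278 and 241, and 162.5 and 155, and in Nanog-cKO 166 and 156, 275 and 286.5, and 237 and 223. The rise of the sum in Oct4-cKO was almost all Gata6, with 26.1 and 31.9 in ESCs against 534 and 481.5 in untreated L-EPSCs, while Gata4 overlapped (63.8 and 27.1 against 56.8 and 67.4). In Sox2-cKO the ESC and untreated sums nearly met, the Dox sums lay below both, and the genes did not move together. Gata4 there had 101 and 86.7 in ESCs against 44.3 and 37.9 in untreated L-EPSCs, while Gata6 had 94.9 and 119.6 against 218 and 190.5. Sox7 was lower in untreated L-EPSCs than in ESCs in all 3 lines. Of all 16 endoderm genes, 6 were called higher on conversion in Oct4-cKO (median 0.36), 3 higher and 7 lower in Sox2-cKO (median -0.49), and 4 higher and 4 lower in Nanog-cKO. Of all genes, 13.0%, 7.99% and 12.2% were called higher on conversion and 15.4%, 11.6% and 14.7% lower. With Dox, 1 was higher and 5 lower in Oct4-cKO, 3 higher and 4 lower in Sox2-cKO, and 1 lower in Nanog-cKO, against 8.53%, 7.79% and 2.80% of all genes called higher and 10.8%, 7.32% and 2.59% lower. Sparc or Lamb1, both also counted as basement membrane genes, was the most abundant endoderm marker in every library. Macrophage markers, 9 genes led by Cd68, summed to 247 to 827 normalized counts over the 18 libraries. Cd68, which is not a defining marker, made most of each sum. Of the defining markers, Ptprc did not exceed 2.3 and Adgre1 did not exceed 1.8, while Csf1r reached 69.1 in Oct4-cKO with Dox.

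Endothelial markers, 5 genes, summed to 2351.5 and 2387 normalized counts without and 216.5 and 228 with Dox in Oct4-cKO, 2688 and 2665 against 146 and 136 in Sox2-cKO, and 1737 and 1763 against 2135 and 2041 in Nanog-cKO. The sums were far lower with Dox in Oct4-cKO and Sox2-cKO and higher in Nanog-cKO, and Pecam1 made most of each untreated sum. Cdh5 went the other way in Oct4-cKO, with 63.0 and 62.0 without and 165.8 and 164.3 with Dox. It did so in Sox2-cKO too, with 15.1 and 7.0 without and 26.4 and 31.1 with Dox. In Nanog-cKO the higher sum was due to Pecam1 (1649.9 and 1712.9 without, 2102.8 and 2004.4 with Dox). Kdr there was lower with Dox (26.6 and 23.4 against 5.3 and 10.1), as was Cd34 (27.7 and 15.3 against 4.4 and 10.1). Pecam1, the most abundant in all groups but Oct4-cKO with Dox, had 2069 and 2112 without and 12.7 and 20.0 with Dox in Oct4-cKO. With Dox, limma called 3 of 5 lower and 1 higher in Oct4-cKO (median -2.09) and in Sox2-cKO (median -3.16), and 2 lower in Nanog-cKO (median -0.01), against 8.53%, 7.79% and 2.80% of all genes called higher and 10.8%, 7.32% and 2.59% lower.

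Collagen folding genes are given beside the shares of all genes called on conversion, 13.0% higher and 15.4% lower in Oct4-cKO, 7.99% and 11.6% in Sox2-cKO, and 12.2% and 14.7% in Nanog-cKO. Of 20, limma called 7 higher and 2 lower in Oct4-cKO (median 0.39), 8 higher and 2 lower in Sox2-cKO (median 0.38) and 8 higher and 3 lower in Nanog-cKO (median 0.21). P4ha1, a subunit of the enzyme that hydroxylates collagen prolines, had 542 and 632 normalized counts in Oct4-cKO ESCs against 4147 and 4179 in L-EPSCs. It was far higher after conversion, and limma gave 2.83 (SE 0.0629, adjusted p 4.29e-15), with 1.76 in Nanog-cKO (SE 0.0629, adjusted p 1.24e-12). The P4ha1 effect was larger in Oct4-cKO than in Sox2-cKO by 1.05 (SE 0.0889, limma adjusted p 3.22e-07). Against Nanog-cKO the difference was 1.07 (SE 0.0889, limma adjusted p 1.62e-07), so the rise was of similar size in Sox2-cKO and Nanog-cKO. With Dox, 8.53%, 7.79% and 2.80% of all genes were called higher and 10.8%, 7.32% and 2.59% lower in these lines. Of the folding genes, 1 was higher and 6 lower in Oct4-cKO (median -0.46), 3 higher and 1 lower in Sox2-cKO (median 0.01), and 1 higher and 1 lower in Nanog-cKO (median -0.18). Serpinh1 had 693.5 and 677 without and 2193 and 2188 with Dox in Sox2-cKO, higher with Dox, and limma gave 1.67 (SE 0.0518, adjusted p 2.84e-13).

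Processing, crosslinking and receptor genes have the same shares beside them on conversion: 13.0%, 7.99% and 12.2% of all genes higher and 15.4%, 11.6% and 14.7% lower in Oct4-cKO, Sox2-cKO and Nanog-cKO. Of 14 processing and crosslinking genes, 1 was higher and 7 lower on conversion in Oct4-cKO (median -1.13), 1 higher and 6 lower in Sox2-cKO (median -0.92), and 1 higher and 3 lower in Nanog-cKO (median -0.42), the last count of lower genes near the share of all genes. With Dox, where 8.53%, 7.79% and 2.80% of all genes were called higher and 10.8%, 7.32% and 2.59% lower, 5 were lower in Oct4-cKO (median -1.13), 1 higher and 2 lower in Sox2-cKO (median -0.29), and 1 higher and 3 lower in Nanog-cKO (median -0.58). Pcolce, which aids procollagen cleavage, had 1422 and 1405 normalized counts without and 384 and 355 with Dox in Nanog-cKO. It was lower with Dox, with -1.93 by limma (SE 0.069, adjusted p 1.15e-11). Of 8 receptors, 2 were higher and 1 lower on conversion in Oct4-cKO and in Sox2-cKO, and 1 higher and 2 lower in Nanog-cKO. With Dox, 2 receptors were higher and 1 lower in Oct4-cKO and in Sox2-cKO, and 1 was higher in Nanog-cKO. With 8 genes, receptor counts this small are not read as a result.

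Other basement membrane genes gave 2 higher and 2 lower of 16 on conversion in Oct4-cKO (median 0.13), 2 higher and 4 lower in Sox2-cKO (median -0.19), and 2 higher and 5 lower in Nanog-cKO (median -0.30). Over all genes 13.0%, 7.99% and 12.2% were called higher and 15.4%, 11.6% and 14.7% lower, so the Oct4-cKO counts lay at the shares of all genes. With Dox, against 8.53%, 7.79% and 2.80% of all genes called higher and 10.8%, 7.32% and 2.59% lower, 7 were lower in Oct4-cKO (median -0.99), 3 higher and 3 lower in Sox2-cKO (median 0.27), and 1 lower in Nanog-cKO (median -0.09). Nid2, a protein that links laminin and type IV collagen, had 7333 and 7321 normalized counts without and 1671 and 1815 with Dox in Oct4-cKO. Lamc1 had 8902 and 8970.3 against 3171.5 and 3220.2 in the same line. Both were lower with Dox, with limma values of -2.07 for Nid2 (SE 0.0373, adjusted p 1.65e-16) and -1.48 for Lamc1 (SE 0.0221, adjusted p 1.85e-17). The gene lower in Nanog-cKO was Nid1, with 3440.4 and 3593 without and 1056 and 1045.5 with Dox and -1.74 by limma (SE 0.0407, adjusted p 7.36e-14).

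The type IV genes lie in head to head pairs on the NCBIM37 assembly. Col4a1 spans bases 11198423 to 11312826 of chromosome 8 on the minus strand, and Col4a2 spans 11312805 to 11449287 on the plus strand. Their annotated starts overlap by 22 bases, in capitals in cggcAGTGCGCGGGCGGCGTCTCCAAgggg, the plus strand of bases 11312801 to 11312830. Col4a3 and Col4a4 lie 71 bases apart on chromosome 1, and Col4a5 and Col4a6 lie 1308 bases apart on chromosome X. Of the pairs, Col4a1 and Col4a2 had the most counts in every group. The ratio of Col4a1 to Col4a2 was 1.22 to 1.55 over the J1 libraries. In Oct4-cKO it was 2.61 and 2.89 in ESCs, 2.03 and 2.03 in untreated L-EPSCs and 1.66 and 1.72 with Dox, and in Sox2-cKO 1.73 and 1.82, 2.07 and 2.11, and 1.26 and 1.28. In Nanog-cKO it was 2.74 and 1.82, which lay far apart, then 1.76 and 1.7, and 1.19 and 1.23.

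Col18a1 spans bases 76514923 to 76629293 of chromosome 10 on the minus strand, near Col6a1 and Col6a2 on the same chromosome. Col1a1 spans 94797538 to 94814356 of chromosome 11, and Col3a1 spans 45368383 to 45406551 of chromosome 1 beside Col5a2. Exons of Col1a1, Col4a1, Col4a2, Col5a1, Col7a1, Col9a3, Col10a1, Col15a1 and Col22a1 overlap exons of other annotated genes, by 14 to 234 bases. All of these overlaps join opposite strands except that of Col7a1 with Mir711. The strand setting of the read counting is not stated, so reads in the opposite-strand overlaps cannot be assigned to either gene.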

How the data were processed

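The deposited values are normalized counts: per the submitters' notes, the authors trimmed reads with Trim Galore 0.6.4, mapped them with STAR 2.7.9a, counted them per gene with HTSeq 0.11.2 and normalized them with DESeq2 (given as 4.1.1). The signal in each table was made by the authors by dividing gene counts by a size factor per library before deposit, and 100% of values returned whole reads within 0.1 reads of a whole number when multiplied back. Size factors were 0.8701 to 1.1128 in J1 and 0.8684 to 1.223 in the tet-off table. Whether HTSeq counted with strand is not given.

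Tests used limma 3.58.1 with a mean-variance trend on log2(normalized count + 1) in R 4.3.3, with all groups of a table in 1 fit and genes of at least 2 recovered reads. P-values were adjusted by Benjamini-Hochberg within each comparison. The 15 comparisons were 3 among J1 groups, 3 conversions, 3 Dox effects and 6 differences of these effects between lines. Lines and effects were compared only within a table. Alternatives were edgeR 4.0.16 and DESeq2 1.42.0 on the recovered reads, TMM scaling, pseudocounts of 0.1 and 5, other filters and fold thresholds, fits of only the groups compared, the replicate number as a block, and leaving out each library. The edgeR test called 4501, 4369 and 3038 genes in the J1 comparisons (D-EPSC against ESC, L-EPSC against ESC, L-EPSC against D-EPSC). In Oct4-cKO, Sox2-cKO and Nanog-cKO it called 6693, 4642 and 6212 genes on conversion and 4224, 3378 and 1224 with Dox.

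Statistics are printed for at most 6 called collagen genes per comparison by highest mean, plus Col1a1, Col3a1, Col4a1, Col4a2 and Col18a1 where called, and for at most 3 per difference between lines. Of the folding, processing, receptor and basement membrane lists, at most 3 called genes per direction were named. Loxl1 is on the fibroblast and processing lists, Lamb1 and Sparc are on the endoderm and basement membrane lists, and Adgre1 was sought under its older name Emr1 too. Members and lists were chosen with earlier results of these data known. Positions and exon lengths are from NCBIM37 with GENCODE vM1. Summaries used Python 3.11.15 and pandas 2.3.3.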

Additional observations from a re-analysis of the deposited data

Results flagged for a closer look

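These are the differences of an effect between lines that limma called, at most 3 per contrast, given as log2 values in which a positive number means a higher effect in the line named before "against". What flagged each was that the effect differed between groups.

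For the Dox effect in Oct4-cKO against Sox2-cKO, the values were -2.40 for Col7a1, -2.32 for Col27a1 and -2.77 for Col25a1. For Oct4-cKO against Nanog-cKO they were -1.71 for Col18a1, -2.65 for Col9a2 and -1.03 for Col22a1. For Sox2-cKO against Nanog-cKO they were -1.38 for Col18a1, 1.61 for Col5a3 and -2.65 for Col9a2.

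For the conversion effect in Oct4-cKO against Sox2-cKO, the values were -0.62 for Col5a3, -1.09 for Col9a2 and 1.09 for Col4a2. For Oct4-cKO against Nanog-cKO they were 0.81 for Col18a1, 1.03 for Col4a1 and 1.09 for Col4a2. For Sox2-cKO against Nanog-cKO they were -1.65 for Col2a1, -2.08 for Col7a1 and 0.61 for Col4a1.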

How the results depend on the processing

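Of 228 alternative values of the 15 counts of called collagen genes, 214 stayed within a factor of 1.5 of the count reported, 9 were lower by more and 5 higher by more. The Dox difference of Oct4-cKO and Sox2-cKO, 3 genes, became 7 with edgeR (2 of them shared), 5 with a fold threshold of 0.6, 5 with a filter at a mean of 10, and 2 to 5 without single libraries. The conversion difference of Oct4-cKO and Sox2-cKO, 4 genes, became 7 with edgeR. That of Sox2-cKO and Nanog-cKO, 6 genes, ranged from 2 to 7 without single libraries. D-EPSCs against ESCs in J1, 26 genes, ranged from 17 to 23 without single libraries. The Nanog-cKO Dox count of 8 ranged from 5 to 8 without single libraries and was 3 when only the groups compared were fitted. That fit gave 8 in place of 14 for Dox in Oct4-cKO and 10 in place of 17 for conversion in Sox2-cKO. Taking the replicate number as a block gave 4 in place of 3 for the Dox difference of Oct4-cKO and Sox2-cKO and 9 in place of 8 for Dox in Nanog-cKO. The other counts were unchanged, and correlations between libraries sharing a number were -0.028 to 0.016. Of 3176 alternative values for single genes, 2951 stayed the same, 218 were weaker, 7 stronger and none reversed. Of the weaker ones, 55 came from a fold threshold of 1 and 26 from fitting only the groups compared.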
